A study of Mus musculus with 6 samples.

Results

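Complement and coagulation are the 2 plasma cascades that the liver supplies, and the transcripts described here are those of 43 of their genes in mouse liver. The genes were chosen by name, as a list of complement components, clotting factors and their regulators, with earlier results of these data known. Of the 43, 40 had at least 1 probe set annotated with that gene symbol alone, 54 such probe sets in all, out of 18193 genes so named on the array. C3, the central component of complement, and Cfd, the adipocyte-made protease factor D, are not analysed here, and C4b shared its probe set with C4a. All 40 measured genes were bright enough to be tested, among 13718 genes. In the comparisons, 37 of the 40 are taken as made mainly by hepatocytes, although some have other sources too, and 3 (C1qa, C1qb and C1qc) as made by macrophages.

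Total RNA of mouse livers was the source of the biotin-labelled material on the arrays. The mice were male, 8 weeks old, of mixed background, fed standard chow and fasted for 24 h. Of the 6 arrays, 3 carry the genotype Mig-6 d/d and 3 the genotype Mig-6 f/f. Mig-6, encoded by Errfi1, dampens signalling from the epidermal growth factor receptor and its relatives. The Cre driver, the tissue in which d/d mice lack the gene and whether f/f mice carried a Cre are not given in the sources used here, nor is whether RNA of several animals was pooled. The labels do not state that each array holds a different animal, so p-values reflect the spread among 6 arrays, which may be technical. Differences are d/d minus f/f in log2(intensity + 16) after quantile normalization, with the standard error of limma and n = 3 per group. The added 16 makes differences of dim genes smaller.

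Hepatocytes secrete most of the proteins of both cascades into plasma. In the classical pathway of complement, C1q recognizes a target and its bound proteases C1r and C1s cleave C4 and C2. The lectin pathway begins with mannose-binding lectins and their proteases, and the alternative pathway with factor B. All of them converge on C3 and C5 and end in a pore built from C6 to C9. Clotting runs through serine proteases, several of which need vitamin K for their maturation, to thrombin, which turns fibrinogen into fibrin. Antithrombin, protein C and plasmin oppose it. C1q is an exception among these plasma proteins, as macrophages, in liver the Kupffer cells, are a main source.

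Errfi1 read 68.0, 61.8 and 59.6 on the d/d arrays, against 5371, 5424 and 5686 on the f/f arrays (log2 difference -6.10 ± 0.10, limma with Benjamini-Hochberg adjustment, adjusted p = 5.07e-08), as the genotype labels say. Array medians of the deposited intensity lay between 55.6 and 65.4. Precision is limited by having 6 arrays. One array stood apart: f/f replicate 3 read 3807 on its 18S ribosomal RNA controls, 8.36 times the highest other array, and its mean correlation with the others was 0.963 where theirs were 0.978 to 0.981. The results below are therefore also given without it. Albumin (Alb), the brightest hepatocyte marker, read 34684 to 35800 in d/d and 33743 to 34157 in f/f. The dimmest hepatocyte marker tested, Ass1, read 79.6 to 92.9 in d/d and 79.5 to 138 in f/f. It has 1 probe set, and whether that probe set reports the gene well was not tested. Its difference of -0.11 was 0.06 without f/f replicate 3.

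The hepatocyte-made factors lay somewhat higher in d/d livers as a group of small differences, and the 3 C1q genes lay lower. By limma, with Benjamini-Hochberg adjustment over all genes tested, 0 of the 40 genes had an adjusted p under 0.05, where 13 of 13718 genes (0.0948%) did, and the members' adjusted p ran between 0.179 and 0.994. Of the 37 hepatocyte-made factors, 34 (91.9%) had a positive difference, against 46.4% of all genes tested. Their median difference was 0.19 and that of all genes tested -0.02. The range went as low as -0.31 for Mbl1 and as high as 0.54 for F11. The C1q genes had a negative difference in 3 of 3 cases, with a median of -0.29. In bulk liver RNA, fewer cells of a type and less RNA per cell cannot be told apart.

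At an unadjusted p under 0.05 in limma, 12 of the 37 hepatocyte-made factors were higher and 0 were lower, where 4.77% of all genes tested were higher and 3.08% lower. All d/d arrays lay above all f/f arrays for 16 of the 37 and below them for 0, against 7.86% and 6.82% of all genes tested. For single genes, separate groups were judged on the normalized log2 values. Of the C1q genes, both C1qa and C1qc reached an unadjusted p under 0.05 on the lower side, and the same genes had separate groups. These counts depend on single arrays. The count of 12 was 7 when d/d replicate 2 or f/f replicate 1 was left out and 8 when d/d replicate 1 was. The count of 16 was 25 when f/f replicate 2 was left out. With fewer arrays in a group, separate groups become more frequent for all genes too. Their share on the higher side was 13.5% without f/f replicate 3, against 7.86% with all arrays. Shares of all genes without each other array are not given here.

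Without f/f replicate 3, again 0 of the 40 genes passed, where 82 of all genes tested (0.598%) did, and the lowest adjusted p of a member was 0.0537, for C1s1. Positive differences were found for 34 of the 37 hepatocyte-made factors, against 48.1% of all genes tested, with a median of 0.19. An unadjusted p under 0.05 on the higher side was reached by 13 of them, against 5.89%. Groups were separate on the higher side for 18 of them, against 13.5%. The C1q median was -0.33.

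**Figure D1:**
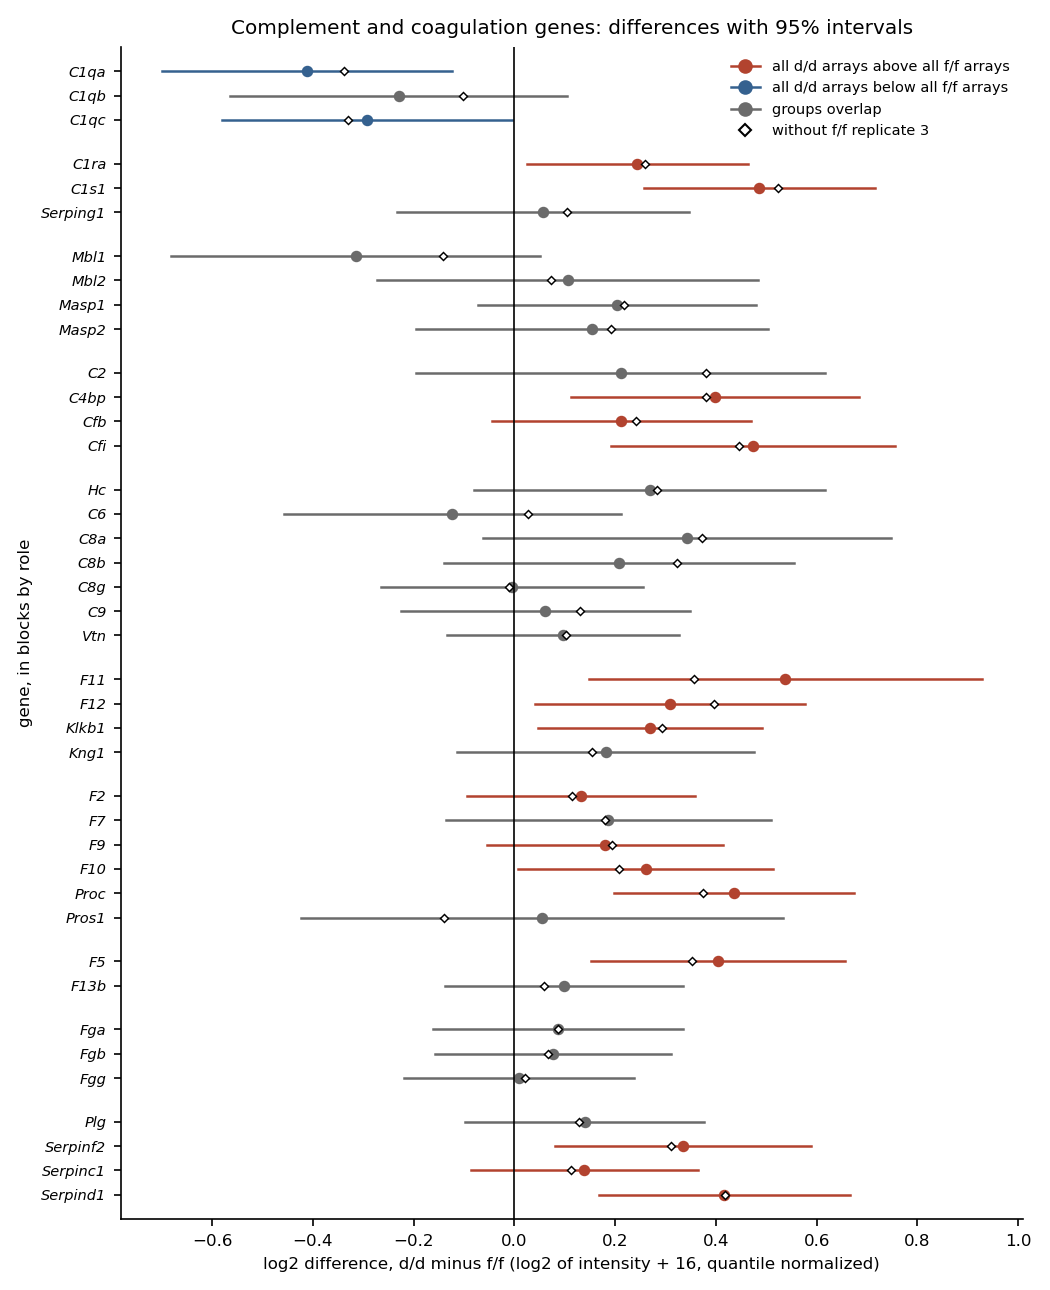
Log2 difference (x axis, d/d minus f/f on log2 of intensity + 16, quantile normalized) of the 40 measured genes, set in blocks by role down the y axis. Dots are the limma estimates over 3 d/d and 3 f/f arrays, lines their 95% intervals, and open diamonds the estimate without f/f replicate 3. Most dots lie to the right of 0, the 3 C1q genes, Mbl1 and C6 lie to the left, and C8g and the fibrinogen chains lie near 0.

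The spread of the whole group can be seen by array. Averaged over the 37 hepatocyte-made factors, the log2 value relative to each gene's own mean was 0.09, 0.13 and 0.07 on the d/d arrays, against -0.20, -0.02 and -0.09 on the f/f arrays, so the groups did not overlap. The d/d arrays were close together, while the f/f arrays were spread more widely than the gap between their highest and the lowest d/d array. The array of f/f replicate 1 had the lowest of the 6 values for 24 of the 37 genes, and that of d/d replicate 2 the highest for 19. Without f/f replicate 1 the median difference was 0.13.

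Averaged over C1qa, C1qb and C1qc in the same way, the values were -0.30, -0.04 and -0.12 on the d/d arrays, against 0.03, 0.17 and 0.26 on the f/f arrays. These groups did not overlap either, and d/d replicate 1 was the lowest array.

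Marker genes of the cells that make these proteins were read on the same arrays. Of 12 hepatocyte markers tested, 5 had a positive and 6 a negative difference, and that of Alb was 0, since it held the same rank on every array. Their median difference was -0.01, and their summed intensity spanned 202836 to 207177 in d/d and 203420 to 209446 in f/f, so the groups overlapped. Groups were separate for 4 of the 12 on the higher side and 2 on the lower, against 7.86% and 6.82% of all genes tested. The 4, named after their values were seen, are plasma proteins like the factors: Apoa1 (0.05), Apob (0.14), Apoh (0.08) and Ahsg (0.15). Separation depended on the scaling. The deposited values of Ahsg overlapped, at 16966 to 17681 in d/d and 15251 to 17112 in f/f. Those of Alb were higher on all d/d arrays, although its normalized difference was 0. The 2, named likewise, are Tat (-0.38) and Cyp2e1 (-0.15). Ttr, another plasma protein, differed by -0.02 with overlapping groups. Of 16 Kupffer cell markers, 14 had a negative and 2 a positive difference, and 0 passed the adjusted p of 0.05, with a median of -0.17. The Kupffer sum spanned 4913 to 6032 in d/d and 5086 to 6091 in f/f, which overlap, and no marker of either list had an intensity of 0. The C1q genes therefore lay lower beside most Kupffer markers, and the part of those cells in the C1q values was not tested. Slc40a1, the iron exporter ferroportin, was the brightest Kupffer marker and on the higher side, with 0.36 ± 0.11, and hepatocytes express it too. Without it, a choice made after seeing the data, the Kupffer sum spanned 2881 to 3708 in d/d and 3457 to 4506 in f/f, which still overlap. The mean log2 value of the other 15 markers, relative to each gene's mean, was -0.24, -0.01 and -0.05 on the d/d arrays, against 0.01, 0.21 and 0.08 on the f/f arrays, narrowly separate. With Slc40a1 kept, the means of the 16 were -0.22, 0.01 and -0.04 in d/d and -0.0017, 0.19 and 0.06 in f/f, which overlap. Marco, the other marker on the higher side, differed by 0.22. After normalization, Slc40a1 and Marco had separate groups on the higher side, and Cd163 (-0.69) and Lyz2 (-0.37) on the lower. These were 2 of the 16 on each side, against 7.86% and 6.82% of all genes tested. The deposited values of Marco overlapped, at 74.6 to 94.9 in d/d and 68.1 to 83.4 in f/f.

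**Figure D2:**
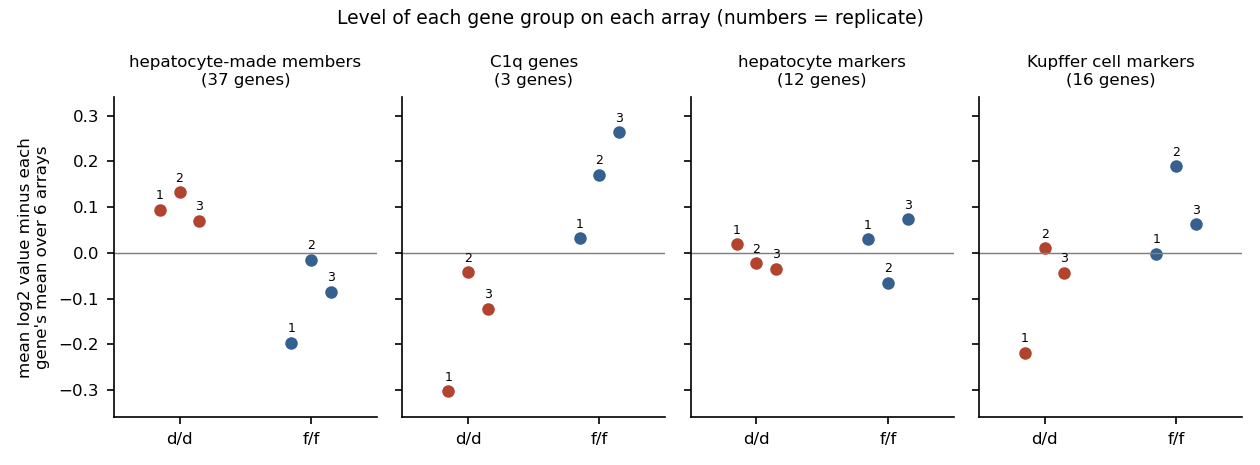
Mean log2 value on each array relative to each gene's mean over the 6 arrays (y axis), for the 37 hepatocyte-made factors, the 3 C1q genes, 12 hepatocyte markers and 16 Kupffer cell markers, with d/d left of f/f in each panel. Points are single arrays numbered by replicate. The d/d and f/f arrays separate in the first pair of panels and overlap in the other pair.

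Sequences upstream of the transcription start were read for 31 of the 40 genes from RefSeq (GRCm38.p6), as windows of 250 bases before to 50 after the start. The 4 shown were picked after their values were seen and only among windows that hold a motif, so a motif in each follows from the choice. They are those of C1s1 (lowest p of the members), F11 (largest difference), Fga (a fibrinogen chain with a difference near 0) and C1qc (one of the C1q genes). Each line gives the 250 bases before the start, 5′ to 3′ on the gene's strand, with motif matches on either strand in capitals. The positions are chr6:124542360-124542609 on the minus strand for C1s1, chr8:45262032-45262281 on the minus strand for F11, chr3:83025903-83026152 on the plus strand for Fga and chr4:136892915-136893164 on the minus strand for C1qc.
C1s1: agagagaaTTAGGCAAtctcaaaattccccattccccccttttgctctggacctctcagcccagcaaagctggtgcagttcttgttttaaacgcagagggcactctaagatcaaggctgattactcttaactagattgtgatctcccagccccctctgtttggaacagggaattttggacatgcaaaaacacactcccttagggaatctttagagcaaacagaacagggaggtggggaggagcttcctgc
F11: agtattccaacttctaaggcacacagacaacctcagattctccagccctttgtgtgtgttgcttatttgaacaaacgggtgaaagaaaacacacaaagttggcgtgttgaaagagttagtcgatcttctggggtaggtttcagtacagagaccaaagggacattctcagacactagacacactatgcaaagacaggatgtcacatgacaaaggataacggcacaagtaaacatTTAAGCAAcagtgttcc
Fga: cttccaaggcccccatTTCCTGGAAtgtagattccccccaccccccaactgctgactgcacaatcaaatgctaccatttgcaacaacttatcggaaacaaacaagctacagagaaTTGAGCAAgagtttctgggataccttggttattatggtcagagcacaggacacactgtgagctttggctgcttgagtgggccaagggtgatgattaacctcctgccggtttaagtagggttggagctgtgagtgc
C1qc: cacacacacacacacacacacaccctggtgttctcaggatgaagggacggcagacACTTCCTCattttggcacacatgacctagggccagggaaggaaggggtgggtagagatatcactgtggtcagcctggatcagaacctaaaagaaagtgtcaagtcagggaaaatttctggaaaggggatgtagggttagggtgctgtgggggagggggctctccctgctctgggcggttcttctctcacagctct
Capitals mark a C/EBP motif (TTGCNNAA) whose first base is at -242 in C1s1, at -17 in F11 and at -135 in Fga. In Fga they also mark a STAT3 motif (TTCCNGGAA) at -234, and in C1qc a PU.1 motif (GAGGAAGT) at -195.

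Motifs were counted per gene, as present in any of its windows of 300 bases, for 29 hepatocyte-made factors and for all 27025 genes with a window. The C/EBP motif was found in 9 (31.0%), namely C1ra, C1s1, C9, F11, F9, Fga, Fgb, Klkb1 and Serpinc1, against 12.2% of all genes. The STAT3 motif was found in Fga and Pros1 (6.90%), against 1.35%. The HNF4 motif CAAAGTCCA was found in 0 of them and 0.555% of all genes, and the PU.1 motif in 0 of them and 3.69%. C1qc held the PU.1 motif and C1qb did not, and both have a window. Both strands were searched, and motifs could overlap. A match to these letters is not a binding site, and genes with larger and smaller differences both held matches: C1s1 and F11 beside Fga, Fgb and C9.

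The C1q subunits, chains A, B and C of the recognition molecule of the classical pathway, all had negative differences, as did Mbl1, C6 and C8g among the other members. C1qa read 259, 311 and 314 on the d/d arrays, against 350.5, 403 and 441 on the f/f arrays (log2 difference -0.41 ± 0.13, limma with Benjamini-Hochberg adjustment, adjusted p = 0.389). All d/d arrays lay below all f/f arrays. C1qc read 146, 184 and 187 on the d/d arrays, against 205, 229 and 208 on the f/f arrays (-0.29 ± 0.13, adjusted p = 0.628). Again the groups were separate, with d/d replicate 1 the lowest. C1qb read 319, 393 and 326 on the d/d arrays, against 358, 386 and 486 on the f/f arrays (-0.23 ± 0.15, adjusted p = 0.783). Here d/d replicate 2 lay above the lower f/f arrays, and without f/f replicate 3, the highest, the difference was -0.10. Other probe sets of C1qb gave -0.37 and -0.05.

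The C1 proteases lay on the other side from the C1q chains they bind. C1s1, the protease C1s, had the lowest p of the 40 genes: it read 2060.3, 2064 and 1943 on the d/d arrays, against 1417, 1458 and 1519.6 on the f/f arrays (0.49 ± 0.10, adjusted p = 0.179). C1ra, the protease C1r that activates it, read 1631, 1631 and 1629.7 on the d/d arrays, against 1349, 1407 and 1390.3 on the f/f arrays (0.24 ± 0.10, adjusted p = 0.577). For both genes the groups were separate and the arrays within a group close together. Both have a near-identical copy in the mouse, C1s2 and C1rb, so the split of signal between copies is uncertain. Serping1, the C1 inhibitor that inactivates both proteases, differed by 0.06 ± 0.13 with overlapping groups, and by -0.05 without f/f replicate 1.

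The lectin pathway was mixed, with 3 of 4 genes positive, 0 with separate groups and a median of 0.13. Mbl1 and Mbl2 are the mannose-binding lectins. Mbl1 differed by -0.31 ± 0.16 and by -0.14 without f/f replicate 3, on which it was highest, and Mbl2 by 0.11 ± 0.16, or -0.04 without f/f replicate 1. Their proteases Masp1 and Masp2 differed by 0.20 ± 0.12 and 0.15 ± 0.15, and the Masp2 value was -0.0041 without d/d replicate 3. The other Masp1 probe sets above the dim filter gave -0.14, -0.12 and -0.43, so the direction for Masp1 rests on the brightest probe set, and the mean of its probe sets gave -0.06. The second Masp2 probe set gave 0.46.

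Of the convertase components and their regulators, 4 of 4 measured genes were positive, with a median of 0.31. Cfi, the protease that degrades C3b and C4b, read 8853, 9574 and 8717 on the d/d arrays, against 5902, 7878 and 6505 on the f/f arrays (0.47 ± 0.12, adjusted p = 0.287). C4bp, its cofactor for C4b, read 5222, 5430.5 and 5388 on the d/d arrays, against 3642, 4857 and 4058 on the f/f arrays (0.40 ± 0.12, adjusted p = 0.409). Both had separate groups, with f/f replicate 1 lowest and f/f replicate 2 nearest to the d/d arrays. Cfb, the protease of the alternative pathway convertase, differed by 0.21 ± 0.11 with separate groups. C2, the protease of the classical pathway convertase, differed by 0.21 ± 0.18 with overlapping groups. Without f/f replicate 3, where C2 was highest among the f/f arrays, it differed by 0.38, and its other probe sets gave 0.26 and 0.38.

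The terminal pathway, which builds the membrane pore, had 5 of 7 genes positive, 0 with separate groups and a median of 0.10. Hc, the gene of C5, differed by 0.27 ± 0.15. C8a and C8b, chains of C8, differed by 0.34 ± 0.18 and 0.21 ± 0.15, with f/f replicate 1 the lowest array for both. C8g, the third chain of C8, lay at -0.0046 ± 0.11 and was positive without d/d replicate 2 or f/f replicate 1. C6 differed by -0.12 ± 0.15, and by 0.03 without f/f replicate 3, its highest array. C9, the pore's main subunit, differed by 0.06 ± 0.12, and was negative when d/d replicate 2 or f/f replicate 1 was left out. Vtn, vitronectin, which keeps the complex from inserting into membranes, differed by 0.10 ± 0.10.

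The contact factors, which start the intrinsic pathway, were positive in 4 of 4 cases, 3 of them with separate groups, with a median of 0.29. F11, factor XI, had the largest difference of the 40 genes: it read 636, 679.9 and 767 on the d/d arrays, against 511, 569 and 366 on the f/f arrays (0.54 ± 0.17, adjusted p = 0.413). Its lowest value was that of f/f replicate 3, and without that array the difference was 0.36. F12, factor XII, read 3083, 3109 and 2822 on the d/d arrays, against 2363, 2369.6 and 2805 on the f/f arrays (0.31 ± 0.12, adjusted p = 0.554). The groups only just separated, since f/f replicate 3 lay close to d/d replicate 3. Klkb1, plasma prekallikrein, read 2608, 2660.2 and 2521 on the d/d arrays, against 2202, 2169 and 2253 on the f/f arrays (0.27 ± 0.10, adjusted p = 0.520). Its groups were separate by more than the spread within either. Kng1, high molecular weight kininogen, differed by 0.18 ± 0.13 and on a second probe set by 0.39, and it has a near-identical copy, Kng2.

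The vitamin K-dependent factors were positive in 6 of 6 cases, 4 with separate groups, with a median of 0.18. Proc, protein C, which inactivates factors Va and VIIIa, read 4194, 4163 and 4089 on the d/d arrays, against 3263, 3323 and 2884 on the f/f arrays (0.44 ± 0.10, adjusted p = 0.246). Its groups were separate by more than the spread within either, and its p was the second lowest of the 40. F2, prothrombin, read 11999.6, 12488 and 12430.1 on the d/d arrays, against 11016, 11743 and 11331 on the f/f arrays (0.13 ± 0.10, adjusted p = 0.811). The F2 groups were separate, but by less than the spread within the f/f group. F10, factor X, differed by 0.26 ± 0.11 and F9, factor IX, by 0.18 ± 0.10, both with separate groups. F7, factor VII, differed by 0.19 ± 0.14 with overlapping groups. Pros1, protein S, the cofactor of protein C, differed by 0.05 ± 0.21, and by -0.14 without f/f replicate 3, and it was also negative without d/d replicate 2. The other F10 probe sets gave 0.41 and 0.13.

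F5, factor V, the cofactor of factor Xa, read 2975, 3297 and 2825 on the d/d arrays, against 2424, 2465 and 2151 on the f/f arrays (0.40 ± 0.11, adjusted p = 0.314). All d/d arrays lay above all f/f arrays, on its second probe set too, with 0.36. F13b, the carrier subunit of factor XIII, which crosslinks fibrin, differed by 0.10 ± 0.10 with overlapping groups.

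The fibrinogen chains, among the brightest probe sets of the array, lay near 0, and no chain had separate groups. Fga read 13979.6, 15695 and 14095 on the d/d arrays, against 12798, 14997 and 14181 on the f/f arrays (0.09 ± 0.11, adjusted p = 0.880). Fgb read 18701, 19616 and 18094 on the d/d arrays, against 17194, 19639.7 and 17925 on the f/f arrays (0.08 ± 0.10, adjusted p = 0.890). Both chains were lowest on f/f replicate 1. Fgg read 17414, 18103 and 17091 on the d/d arrays, against 16443, 19250.0 and 17978 on the f/f arrays (0.01 ± 0.10, adjusted p = 0.989). The sign of Fgg turned without scaling between arrays (-0.03) and with a common median in place of quantile normalization (-0.0052), and also when d/d replicate 2 or f/f replicate 1 was left out. Fgb stood at the 99.93 to 99.95 percentile of the probe sets on each array.

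Plasminogen and the serpins were positive in 4 of 4 cases, with a median of 0.24. Serpind1, heparin cofactor II, an inhibitor of thrombin, read 4371, 4420.0 and 4312 on the d/d arrays, against 3078, 3679.6 and 3332 on the f/f arrays (0.42 ± 0.11, adjusted p = 0.287). Serpinf2, antiplasmin, read 5163, 5587 and 5488 on the d/d arrays, against 4023, 4939 and 4319 on the f/f arrays (0.33 ± 0.11, adjusted p = 0.450). Both had separate groups. Plg, plasminogen, the precursor of plasmin, read 11929, 12274 and 11792 on the d/d arrays, against 10253, 12212 and 11149 on the f/f arrays (0.14 ± 0.10, adjusted p = 0.810). Its groups overlapped through f/f replicate 2. Serpinc1, antithrombin, differed by 0.14 ± 0.10 with separate groups.

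**Figure D3:**
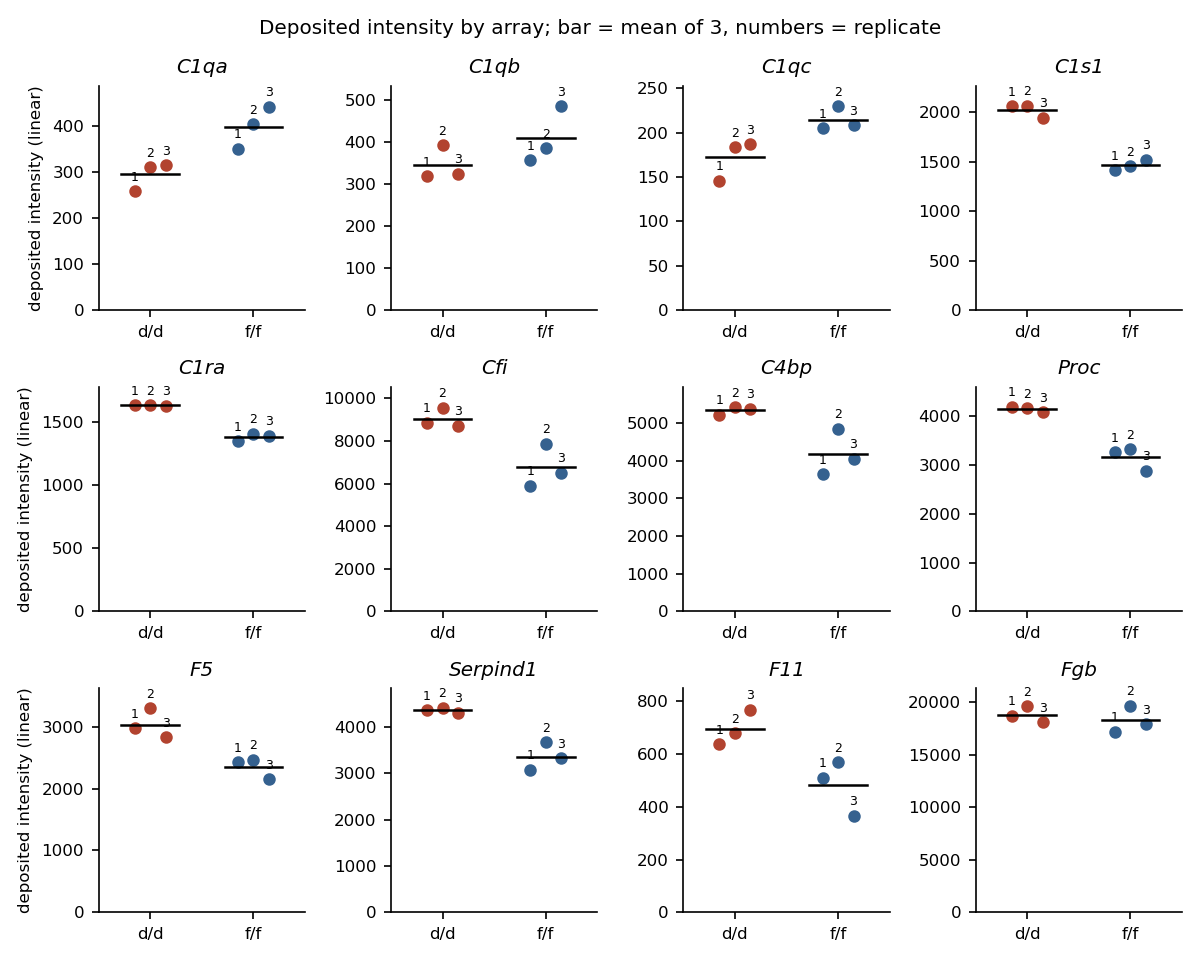
Deposited intensity (y axis, linear, from 0, with its own scale in each panel) of 12 genes on each array, d/d left of f/f. Points are single arrays numbered by replicate and bars the means of 3. The d/d points lie above the f/f points for the 8 factors C1s1 to F11 and below them for C1qa and C1qc, and they overlap for C1qb and Fgb.

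Genes that lie next to each other in the genome had the same sign in 9 of 9 adjacent pairs. The pairs were Cfb and C2, Fgg and Fga, Fga and Fgb, C8b and C8a, C1qb and C1qc, C1qc and C1qa, C1ra and C1s1, F7 and F10, and F11 and Klkb1. Because 34 of the 40 genes were positive, most pairs of any members share a sign. Of the 13 further probe sets of the members that passed the dim filter, 10 had the sign of the one used for the gene, and the 3 others were those of Masp1.

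**Figure D4:**
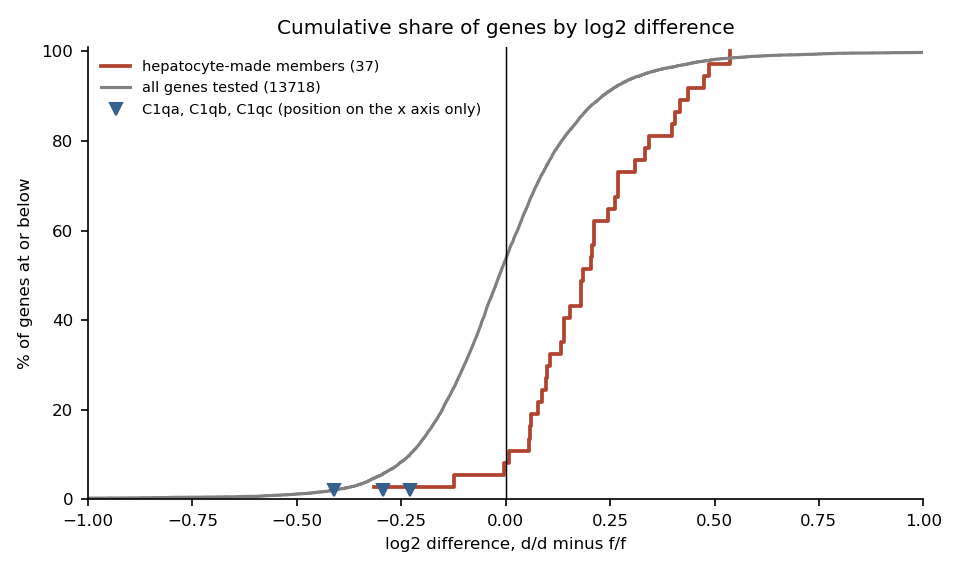
Cumulative share of genes (y axis, percent) at or below a log2 difference, d/d minus f/f (x axis), for the 37 hepatocyte-made factors and for all 13718 genes tested, with triangles at the x positions of the 3 C1q genes. The curve of the factors lies to the right of that of all genes, with medians of 0.19 and -0.02.

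The other genes of the cascades, a list of 55 relatives, receptors and inhibitors, were split between both signs. Of 34 tested, 15 were positive, 19 negative and 0 had an adjusted p under 0.05 by limma, with a median of -0.03. At an unadjusted p under 0.05, 3 were higher and 2 lower, where 4.77% of all genes tested were higher and 3.08% lower. Complement receptors, carried by macrophages and other leukocytes, were negative in 5 of 5 cases, with a median of -0.26. Of all genes tested, 46.4% were positive. Groups were separate for 1 of the 5, on the lower side. Without f/f replicate 3, Itgax turned from -0.12 to 0.10 and Cd93 moved from -0.26 to -0.06. Without that array, C3ar1 was at -0.13, C5ar1 at -0.31 and Vsig4 at -0.34. C3ar1 and C5ar1, the receptors of the fragments C3a and C5a, differed by -0.23 ± 0.12 and -0.38 ± 0.16, and Vsig4, a C3b receptor of Kupffer cells, by -0.26 ± 0.16. Relatives of the lectin pathway were negative in 4 of 4 cases, with a median of -0.30. They were the ficolins Fcna (-0.32) and Fcnb (-0.27) and the collectins Colec10 (-0.09) and Colec11 (-0.35), and were named after their values were seen. Colec11 differed by -0.63 without f/f replicate 3, and Colec10 was positive without d/d replicate 1 or f/f replicate 2. With all arrays, the receptors lay lower beside the C1q genes and most Kupffer markers, whose part was not tested. Vsig4 is in both the receptor list and the Kupffer list.

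Among plasma regulators, Clu, clusterin, differed by 0.07 ± 0.10 and Cfp, properdin, by 0.06 ± 0.13. Of the clotting genes, F8, factor VIII, differed by 0.21 ± 0.13 and Tfpi, the tissue factor pathway inhibitor, by 0.21 ± 0.11. F3, tissue factor, and Vwf, von Willebrand factor, were below the dim filter, with mean intensities of 27.4 ± 5.13 and 43.3 ± 1.95 in d/d and 31.3 ± 6.27 and 39.7 ± 8.92 in f/f (SD, n = 3 each). Plat, tissue plasminogen activator, differed by -0.23 ± 0.11 with separate groups, and Hrg, histidine-rich glycoprotein, by 0.12 ± 0.10. Ggcx, the vitamin K-dependent carboxylase, differed by 0.22 ± 0.15, and Vkorc1, the epoxide reductase that warfarin blocks, by -0.0027 ± 0.11. The signs of Cfp and Vkorc1 turned with single arrays left out.

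Regulators of hepatic secretory genes were positive in 9 of 14 cases, with a median of 0.15, and 0 passed the adjusted p of 0.05, while 5 were higher at an unadjusted p under 0.05, against 4.77% of all genes tested. These 5, named after their values were seen, were Foxa1 (0.37), Foxa3 (0.43), Nr5a2 (0.50), Nr3c1 (0.29) and Il6ra (0.50). Hnf4a, a nuclear receptor needed for hepatocyte identity, differed by -0.02 ± 0.11 and by 0.04 without f/f replicate 3. Cebpa differed by 0.20 ± 0.12, and by 0.10 without f/f replicate 3. Its groups only just separated after normalization. Its deposited values overlapped, at 1348.5 to 1384.4 in d/d and 1053.1 to 1381.5 in f/f. Cebpb, a relative of Cebpa in the acute phase response, differed by -0.09 ± 0.14. Stat3, which carries the interleukin 6 signal, differed by 0.02 ± 0.14, and Nr1h4, the bile acid receptor, by 0.11 ± 0.10. Leaving out single arrays turned the sign of Hnf4a (f/f replicate 3), Cebpb (f/f replicate 2) and Stat3.

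Other cell types were followed through their marker lists, in which 0 genes passed the adjusted p of 0.05. Endothelial markers were positive in 8 of 12 cases (median 0.03, Ptprb 0.09 ± 0.14), stellate cell markers in 4 of 12 (-0.07, Dcn -0.29 ± 0.12) and neutrophil markers in 5 of 8 (0.08, Cxcr2 -0.27 ± 0.22). Platelet markers were positive in 1 of 7 cases (-0.12, Itga2b -0.08 ± 0.19), adipocyte markers in 2 of 4 (-0.12, Car3 0.52 ± 0.18, which hepatocytes also express) and bile duct markers in 1 of 2 (0.02, Epcam -0.17 ± 0.16). The signs of Ptprb, Epcam and Itga2b turned without f/f replicate 3. Of the platelet markers, Itgb3 turned as well (-0.13 to 0.17), while Pf4, Gp9, Gp1bb and Treml1 stayed negative. The mean log2 value of the 7 platelet markers, relative to each gene's mean, was 0.27 on f/f replicate 3. It was -0.11 and -0.03 on the other f/f arrays and -0.06, 0.0038 and -0.07 on the d/d arrays.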

How the data were processed

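Linear intensities per probe set were used as deposited by the authors in a table of 45101 probe sets on 6 arrays. How they summarized, background-corrected and scaled them, and the genome build, are not given in the sources used here. Arrays were grouped by the genotype in the labels, 3 per group.

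Names came from the annotation of the platform: 34945 had 1 gene symbol and were used, 932 had several and 9160 none, besides 64 control probe sets. The brightest probe set by mean stood for a gene, and the lowest 40% by mean were left out (a log2 value of 6.01, an intensity of 48.4), leaving 13718 genes. Values were log2(intensity + 16). As array medians and lower and upper quartiles differed by up to 0.185, 0.143 and 0.160 log2, over a tolerance of 0.1, arrays were quantile normalized. The comparison used limma 3.58.1 (lmFit, eBayes; prior and residual degrees of freedom 4.18 and 4) in R 4.3.3, no covariate, and Benjamini-Hochberg adjustment over all genes tested at 0.05, and the fit was tested on simulated data. Tables and figures were made with pandas 2.3.3 and matplotlib 3.10.9 in Python 3.11.15. Promoter windows and gene order came from RefSeq (GRCm38.p6).

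The members, gene lists, tests and the rule for named genes were chosen with earlier results of these data known, and so give no independent support. All members are named. Values on every array are given for the 12 members of lowest p, the C1q genes, central factors of each role (Fga, Fgb, Fgg, F2, Plg) and Errfi1. The other pathway genes and regulators were named from a list, and each marker list by its brightest member. Same-numbered d/d and f/f arrays deviated from their group means with correlations of -0.0032, -0.14 and -0.47, which gave no sign of pairing. With 3 arrays per group these values cannot show whether samples were matched by number in handling. Alternatives covered the scaling, the dim filter, the probe set, an intensity trend in the variance, weights per array, a block for the replicate number, pseudocounts of 1 and 64, another threshold and each array left out. The alternatives for the counts of hepatocyte-made factors and for genes outside the set were added after seeing the data. Outliers within groups were not tested with 3 arrays per group.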

Additional observations from a re-analysis of the deposited data

How the results depend on the processing

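The median differences of the hepatocyte-made factors and of the C1q genes kept their sign in all alternatives run, at 0.13 to 0.25 and at -0.36 to -0.19. Among 680 values of single members under the alternatives, 17 had the other sign and 1 passed the adjusted p of 0.05 in limma: C1s1 with array weights, at 0.0177, where f/f replicate 3 had a weight of 0.178. The genes called, 13 of all tested, numbered 20 with the mean of all probe sets, 23 with an intensity trend, 214 with array weights and 21 at an adjusted p of 0.1. With single arrays left out they numbered 4 (d/d replicate 1) to 82 (f/f replicate 3). With the replicate number as a block, although the arrays' deviations did not pair by number, 1 gene and 0 members were called. Leaving out single arrays gave 31 to 34 positive hepatocyte-made factors, 7 to 13 at an unadjusted p under 0.05 and 16 to 25 with separate groups. Shares of all genes beside these counts are given only for the run without f/f replicate 3. The signs of 9 members turned, as did those of 10 of the other genes that were followed through the alternatives. With single arrays left out, the log2 difference spanned -0.051 to 0.12 for Serping1, -0.040 to 0.28 for Mbl2, -0.0041 to 0.27 for Masp2, -0.20 to 0.027 for C6, -0.064 to 0.061 for C8g, -0.030 to 0.13 for C9, -0.14 to 0.27 for Pros1 and -0.025 to 0.035 for Fgg. It spanned -0.066 to 0.13 for Cfp, -0.059 to 0.035 for Vkorc1, -0.088 to 0.043 for Hnf4a, -0.18 to 0.042 for Cebpb, -0.090 to 0.093 for Stat3, -0.024 to 0.20 for Ptprb, -0.27 to 0.0027 for Epcam, -0.21 to 0.15 for Itga2b, -0.24 to 0.033 for Colec10 and -0.20 to 0.062 for Ass1. Array weights gave 0.014 for C6, -0.15 for Pros1, 0.029 for Hnf4a, -0.015 for Ptprb, 0.11 for Itga2b and 0.046 for Ass1. The mean of probe sets gave -0.057 for Masp1, and Fgg was -0.026 without scaling and -0.0052 with a common median. The cause of these shifts was not tested. The small number of arrays limits what could be called.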

Other observations

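A pair of probe sets of these genes carried several gene symbols and entered no comparison of genes. The one annotated to C1rb and C1ra read 649, 712 and 655 on the d/d arrays, against 491, 502 and 374 on the f/f arrays, a log2 difference of 0.56, with all d/d arrays above all f/f arrays. The one annotated to C4a and C4b read 4497, 5244 and 4248 on the d/d arrays, against 3450.0, 5216 and 5316 on the f/f arrays, a log2 difference of 0.06, with groups that overlapped. In the other lists, several genes had unadjusted p values under 0.05 in limma and separate groups without passing the adjusted p of 0.05. On the higher side they included Proz, Pzp, Foxa3, Nr5a2, Nr3c1, Il6ra, Slc40a1 and Car3, and on the lower Fcna, Tat, Lyz2 and Dcn. A further pair was singled out after the values were seen. F2r, the thrombin receptor, differed by 0.47 and Cd163, the haemoglobin scavenger receptor of macrophages, by -0.69. With array weights F2r and Cd163 passed, with adjusted p of 0.0378 and 0.0423 in limma.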
